A study of Mus musculus with 4 samples.

Results

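The KLF (Krüppel-like factor) transcription factors examined here are 10 genes, Klf2, Klf3, Klf4, Klf5, Klf6, Klf7, Klf9, Klf10, Klf11 and Klf13, taken by symbol from a table of 56350 mouse genes. They were measured in EO771, a C57BL/6 mouse mammary carcinoma cell line, as total RNA from 2 libraries labelled untreated and 2 labelled BML-210. BML-210, a small molecule that inhibits histone deacetylases (HDACs) and keeps class IIa HDACs from docking on MEF2 transcription factors, was given at 1.0 µM for 48 h. For the control cells the labels give both "untreated" and a vehicle control, and their titles say "WT", a term that the titles of the BML-210 libraries lack. All cells are of 1 line without a named genetic change. The comparison asks how expression differs between cells cultured with and without the inhibitor, and every fold change below is BML-210 over untreated. The library names carry the letter D in the group labelled untreated and V in the group labelled BML-210, and what the letters stand for is not stated, so every direction rests on the group labels.

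KLF proteins bind GC-rich and CACCC-containing DNA through C2H2 zinc fingers at their C-terminal end, while their N-terminal parts differ and recruit different partners. Klf2, Klf4, Klf5, Klf6 and Klf7 mainly act as activators and can bind the acetyltransferases p300 and CBP. Klf3 and Klf8 recruit the corepressor CtBP. Klf9, Klf10, Klf11, Klf13 and Klf16 recruit Sin3, a scaffold that carries HDACs. In epithelial and tumour cells the family is known for opposed effects on growth, with Klf5 as a growth-promoting member and Klf4 and Klf6 often described as growth-restraining. Several members are early response genes whose RNA turns over quickly.

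Klf2 and Klf11 fell and Klf6, Klf7, Klf10 and Klf13 rose in the libraries labelled BML-210, of which the calls of Klf11 and Klf13 were lost when single libraries were left out, while Klf3, Klf4, Klf5 and Klf9 did not pass the test. Of the 10 members, all had enough counts to be tested, 4 were higher and 2 lower at an adjusted p below 0.05 (edgeR's quasi-likelihood test, Benjamini-Hochberg over all tested genes). Over all 14455 tested genes, 22.9% were called higher, 23.5% lower and 46.4% in either direction, so a count of 6 in 10 is not far from the background. The changes were modest: no member changed by 2-fold, and the log2 fold changes ran from -0.65 for Klf2 to 0.49 for Klf10, with a median of 0.06 against -0.0025 for all tested genes. Nothing in the labels says that the 2 libraries of a group came from separate cultures, so the p-values measure the spread between these libraries, which may be technical.

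Of the 10 members, 8 had an entry among the RefSeq promoter sequences (GRCm38.p6, the assembly of mm10), and Klf5 and Klf10 had none. The upstream sequences of Klf2, which fell, of Klf6, which rose, and of Klf4, a close relative of Klf2 that did not pass the test, are shown because the compound acts on MEF2-bound HDACs and MEF2 factors are known activators of Klf2 and Klf4. Each runs 5′ to 3′ on the gene's strand and ends before the first base of the gene in the deposited table or in RefSeq, whichever comes first. Capitals mark matches to the MEF2 consensus and to CACGTG, the E-box bound by MYC and clock factors.
Klf2, chr8:72318812-72319032, plus strand: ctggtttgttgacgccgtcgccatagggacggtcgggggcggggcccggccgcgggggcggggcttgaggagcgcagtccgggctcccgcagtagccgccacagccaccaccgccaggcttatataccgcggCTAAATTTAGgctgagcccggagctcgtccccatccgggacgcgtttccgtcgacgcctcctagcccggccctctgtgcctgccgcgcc
Klf4, chr4:55532476-55532725, minus strand: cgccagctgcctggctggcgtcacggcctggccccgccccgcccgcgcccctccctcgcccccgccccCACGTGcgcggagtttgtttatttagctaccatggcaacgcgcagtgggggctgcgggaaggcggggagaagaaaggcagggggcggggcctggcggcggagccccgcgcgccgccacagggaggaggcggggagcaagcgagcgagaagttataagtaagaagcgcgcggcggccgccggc
Klf6, chr13:5861239-5861481, plus strand: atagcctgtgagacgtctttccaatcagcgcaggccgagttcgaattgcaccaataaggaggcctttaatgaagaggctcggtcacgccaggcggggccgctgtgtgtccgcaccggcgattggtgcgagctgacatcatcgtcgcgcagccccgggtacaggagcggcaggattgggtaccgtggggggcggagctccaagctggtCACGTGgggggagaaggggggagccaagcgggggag

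In these stretches the MEF2 consensus matched once, in Klf2, from 118 to 109 bases before the RefSeq start (chromosome 8, 72318944 to 72318953). Within 250 bases before the start, 1 of the 8 member promoters held that match, against 2.92% of all 32851 promoter windows in the table. The E-box CACGTG was found in 3 of the 8, those of Klf4, Klf6 and Klf11, against 6.02% of all windows. The family's own CACCC core was found in 5 of 8 (52.0% of all windows), GGGCGG, the GC box bound by SP factors, in 7 of 8 (32.7%), and CCAAT in 4 of 8 (33.8%), with 4 copies in Klf6. Of the other motifs among the 12 searched, the AP-1 motif was found in 1 of 8, that of Klf9 (6.75%). Found in 0 of 8 were TATAAA (12.4%), the NF-kappaB consensus (7.25%), the CREB site (1.55%), the SRF box (1.47%), the E2F site (0.895%) and the glucocorticoid response element (0.387%). The member windows were rich in GC, from 59.2% in Klf7 to 78.4% in Klf3, against a median of 52.4%. The gene start in the deposited table lies upstream of the RefSeq start by 893 bases for Klf7, 133 for Klf3, 97 for Klf11, 29 for Klf2 and 7 for Klf6. Those windows lie wholly (Klf7) or partly inside the table's gene. The only CACCC match of Klf2, from 19 to 15 bases before the RefSeq start, falls in that part and is not in the stretch printed above. A match describes letters in a window and is not evidence of binding, and the motifs were chosen after the values were seen. Of the members with the E-box, Klf6 was called higher, Klf11 was called lower and Klf4 was not called. The Klf11 call was lost when single libraries were left out. The relation of any match to the changes was not tested.

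Among the activators, Klf2 showed the clearest fall. Klf2 (ENSMUSG00000055148.7, chromosome 8, 72319033 to 72321656, mm10) encodes a factor of quiescence and of the endothelial response to flow. It measured 59.7 and 62.5 CPM (counts scaled to library size with TMM factors) in the libraries labelled untreated and 40.1 and 37.7 CPM in those labelled BML-210. Both BML-210 libraries lay well below both untreated ones. The means were 61.1 ± 1.98 and 38.9 ± 1.73 CPM (SD, n = 2), a 1.57-fold lower level and a log2 fold change of -0.65 ± 0.07 (SE, with adjusted p = 7.72e-13 by edgeR). Its call held in each of 15 alternative analyses, with log2 fold changes from -0.70 to -0.61.

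Klf4, which shares with Klf2 a role in vessel linings and is also known from epithelial differentiation, did not follow Klf2 clearly. It measured 23.2 and 17.8 CPM in the untreated libraries and 18.7 and 19.2 CPM in the BML-210 libraries. The groups overlapped, because the untreated libraries themselves differed more than the group means. Its log2 fold change was -0.12 with a 95% interval from -0.34 to 0.09 (edgeR adjusted p = 0.368). The value rested on the untreated libraries: it was -0.29 without untreated replicate 2, where it passed (adjusted p = 0.0391), and 0.09 without untreated replicate 1. The range of adjusted p over the alternatives was 0.0391 to 0.678. In raw reads, the ratio of Klf2 to Klf4 was 2.57 and 3.51 in the untreated libraries and 2.15 and 1.96 in the BML-210 libraries.

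Klf5 (ENSMUSG00000005148.8), a growth-promoting factor of basal epithelium and breast tumours, stayed within a narrow band. Its libraries measured 135 and 127 CPM untreated and 137 and 134 CPM with BML-210, and the groups overlapped. The log2 fold change was 0.05, and the 95% interval of -0.04 to 0.14 leaves room for a small change in either direction (edgeR adjusted p = 0.383).

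Klf6 and Klf7, which form a closely related pair, both rose. Klf6 (ENSMUSG00000000078.7, chromosome 13, 5861482 to 5870394), an early response gene with tumour-suppressing activity, measured 192 and 187 CPM in the untreated libraries and 242 and 241 CPM in the BML-210 libraries. The 4 values formed separated pairs with little spread in either. The log2 fold change was 0.35 ± 0.04 (SE, with adjusted p = 2.56e-12 by edgeR), or 1.28-fold higher. Klf7 (ENSMUSG00000025959.13, chromosome 1, 64029447 to 64122282), known from neuronal development, measured 234 and 218 CPM untreated and 260.2 and 254 CPM with BML-210. Its groups were separate but close, and its log2 fold change was 0.18 ± 0.04 (SE, with adjusted p = 2.68e-05 by edgeR). Of the exonic bases of Klf7, 39.3% overlap Gm26649 on the opposite strand, to which 3, 4, 3 and 6 reads were assigned in the 4 libraries. The sources used here do not say how reads in such overlaps were counted, so reads from that partner cannot be told apart from those of Klf7.

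**Figure D1:**
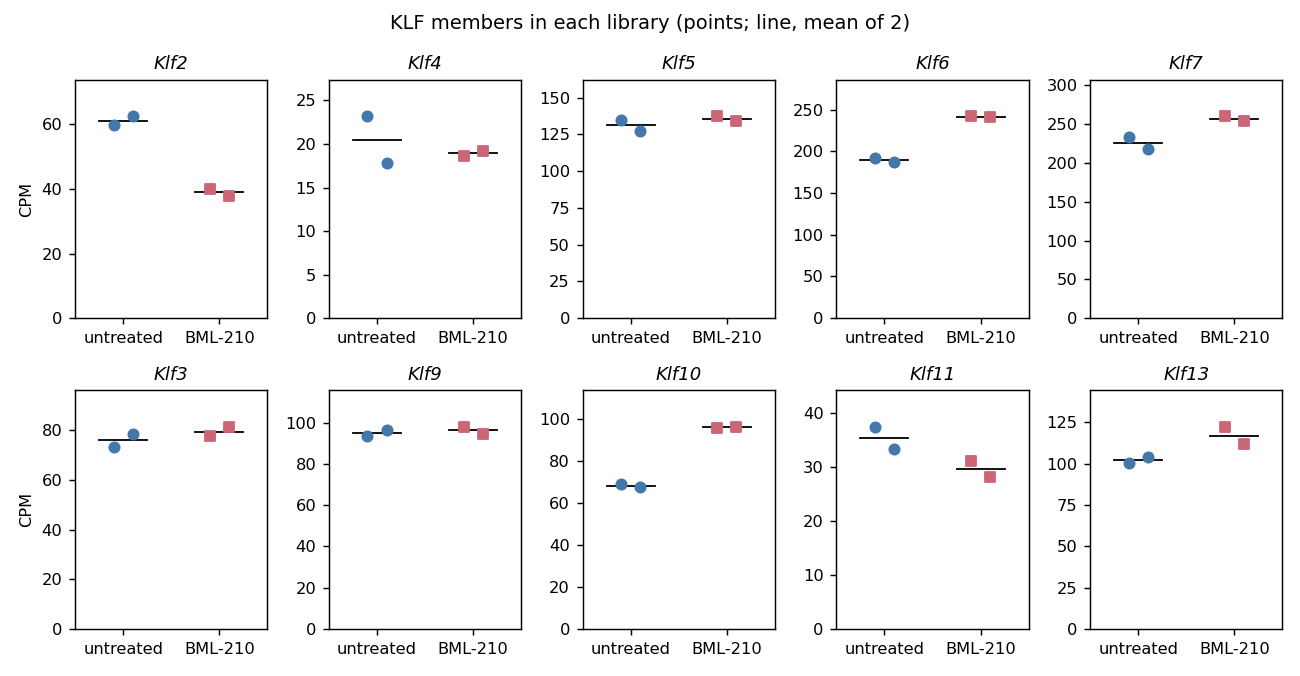
Level of each KLF member (y axis, CPM scaled by TMM factors, from 0) in the 2 untreated libraries (circles) and the 2 BML-210 libraries (squares), with a line at each mean. Klf2 drops from 61.1 to 38.9 CPM and Klf10 climbs from 68.2 to 96.0 CPM with tight pairs, while the untreated pair of Klf4 spans its BML-210 pair.

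Among the repressor members, Klf10 showed the largest rise. Klf10 (ENSMUSG00000037465.10, chromosome 15, 38291463 to 38300706) is the early gene induced by TGF-beta that recruits Sin3 and dampens growth. It measured 69.1 and 67.3 CPM in the untreated libraries and 95.8 and 96.1 CPM in the BML-210 libraries. Both groups were tight and far apart, with means of 68.2 ± 1.24 and 96.0 ± 0.249 CPM (SD, n = 2). The log2 fold change was 0.49 ± 0.05 (SE, with adjusted p = 4.74e-12 by edgeR), a 1.41-fold rise, and the call held in each of 15 alternatives (0.46 to 0.51).

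Klf11, the close relative of Klf10 that TGF-beta also induces, went the other way. Klf11 (ENSMUSG00000020653.12, chromosome 12, 24651274 to 24662789) measured 37.4 and 33.3 CPM untreated and 31.0 and 28.1 CPM with BML-210. The groups were separate, but the gap between them was smaller than the spread within either. Its log2 fold change was -0.26 ± 0.08 (SE, with adjusted p = 0.00627 by edgeR). That call was lost without untreated replicate 1 (-0.17, edgeR adjusted p = 0.176), without BML-210 replicate 2 (-0.19, adjusted p = 0.121) and by DESeq2 (adjusted p = 0.118). The range over all alternatives was 0.00134 to 0.176. The ratio of Klf10 to Klf11 reads, which does not depend on how libraries are scaled, was 1.85 and 2.02 in the untreated libraries and 3.09 and 3.42 in the BML-210 libraries.

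Klf13 and Klf9, both Sin3-binding repressors, differed. Klf13 (ENSMUSG00000052040.10, chromosome 7, 63886351 to 63938915), known from lymphocytes as a regulator of Ccl5, measured 100.3 and 104 CPM untreated and 122 and 112 CPM with BML-210. Both BML-210 libraries were higher, though they differed from each other by more than the untreated pair. The log2 fold change of 0.20 ± 0.05 (SE, with adjusted p = 0.000522 by edgeR) dropped to 0.13 without BML-210 replicate 1, where it no longer passed (adjusted p = 0.0932, the highest over the alternatives, with 9.15e-05 the lowest). Klf9 (ENSMUSG00000033863.2), a target of glucocorticoid and thyroid hormone receptors, measured 93.7 and 96.4 CPM untreated and 98.0 and 94.5 CPM with BML-210. Its groups overlapped, and its log2 fold change of 0.02 had a 95% interval from -0.08 to 0.12 (edgeR adjusted p = 0.786).

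Klf3, the CtBP-binding member, did not pass. Klf3 (ENSMUSG00000029178.14), a repressor known from blood and fat cells, measured 73.2 and 78.5 CPM untreated and 77.5 and 81.3 CPM with BML-210. The groups overlapped, and the log2 fold change was 0.07, with a 95% interval from -0.04 to 0.18 (edgeR adjusted p = 0.308). Of its exonic bases, 3.59% overlap Gm20033 on the opposite strand, which had at most 4 reads in any library. By role, 2 of the 5 activators rose and 1 fell, and 2 of the 4 Sin3-binding repressors rose and 1 fell. Over all tested genes, 22.9% were called higher and 23.5% lower, and groups this small cannot show a difference between the roles. Both BML-210 libraries lay beyond both untreated ones for 6 members, 4 above and 2 below. Among all tested genes 71.3% had separate groups, 35.2% above and 36.1% below.

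**Figure D2:**
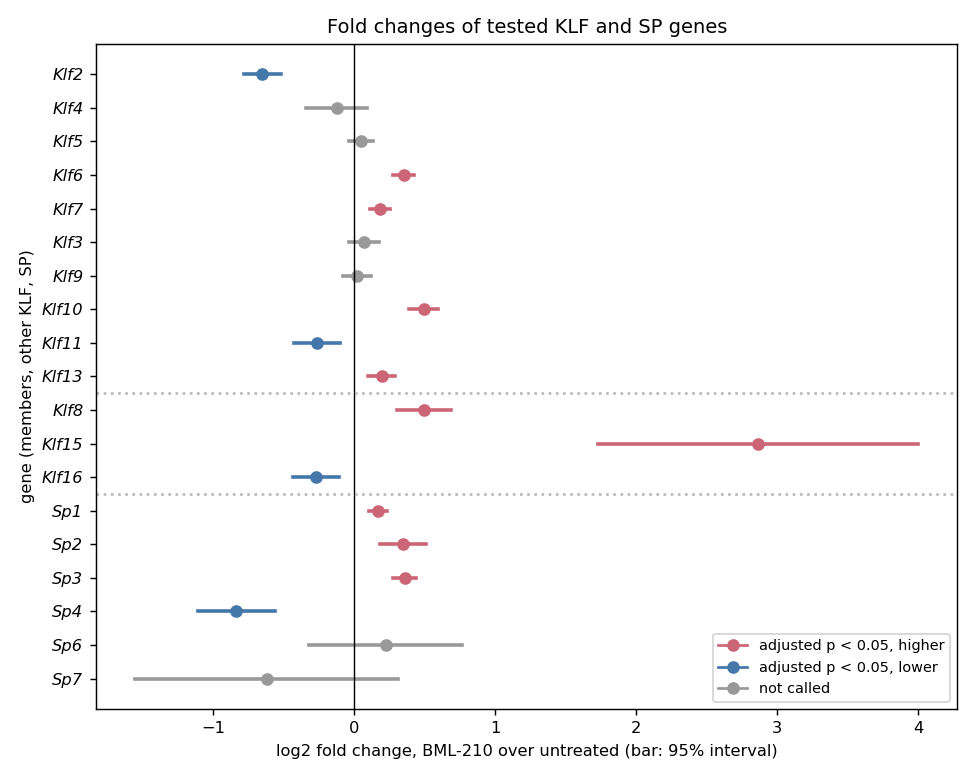
Log2 fold change of BML-210 over untreated (x axis) with its 95% interval (bar) for each tested gene (y axis): the 10 members on top, then other KLF genes and SP factors, coloured by the call at an adjusted p of 0.05. Klf2 at -0.65 and Klf10 at 0.49 mark the ends among members. Klf15, with few reads and tested only through its BML-210 libraries, lies far to the right at 2.86.

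Divided by exonic length (CPM per kb), the members differed in level by several fold within a library, and their order changed with BML-210. In the untreated libraries Klf6 was highest at 43.1 ± 0.801 CPM per kb (SD, n = 2), followed by Klf2 at 33.1 ± 1.07, Klf7 at 27.8 ± 1.36 and Klf5 at 25.2 ± 1.08. Klf9 (19.7), Klf10 (16.3) and Klf13 (13.6) came next, and Klf11 (8.15), Klf3 (6.75) and Klf4 (6.72) were lowest on this scale. Among neighbours in that order, Klf3 and Klf4 overlapped between libraries and the other neighbours did not. In the BML-210 libraries Klf6 was still highest at 55.0 ± 0.182 CPM per kb. Klf2 went from rank 2 to rank 5 at 21.1 ± 0.934 CPM per kb, and Klf10 from rank 6 to rank 4 at 23.0 ± 0.0596. This order depends on the division by length, since Klf2 has the fewest exonic bases: by CPM alone Klf2 was at rank 8 and Klf7, not Klf6, at rank 1 in both groups, while Klf10 went from rank 7 to rank 6. With BML-210, per length, Klf11 (6.82) overlapped Klf3 (7.06), and the other neighbours did not overlap.

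As a share of the summed per-length level of the 10 members, Klf2 made up 15.9% and 17.1% in the untreated libraries and 10.1% and 9.72% in the BML-210 libraries. Klf6 made up 21.6% and 21.5% untreated and 25.7% and 26.2% with BML-210. Klf10 went from 8.15% and 8.13% to 10.7% and 11.0%. The sum itself was 203 and 198 CPM per kb untreated and 215 and 210 (209.8) CPM per kb with BML-210. With BML-210 the part of Klf2 was smaller and the parts of Klf6 and Klf10 larger, in a sum that was higher in both libraries. The ratio of Klf6 to Klf2 reads was 3.21 and 2.99 untreated and 6.04 and 6.40 with BML-210. The exonic length is that of all annotated exons of a gene, which ranges from 1847 bases for Klf2 to 11243 bases for Klf3, so genes with many alternative exons are understated on this scale.

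**Figure D3:**
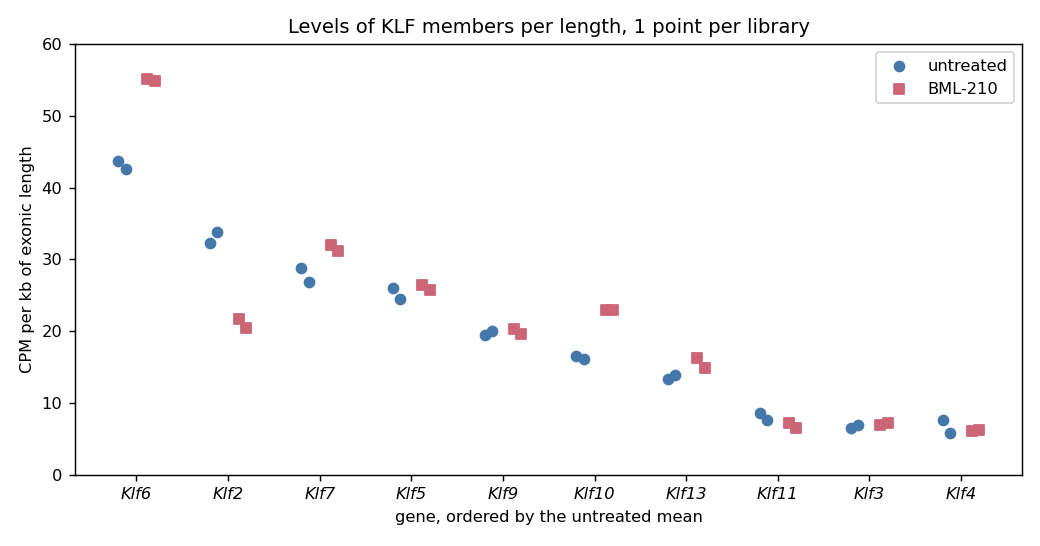
Level per length (y axis, CPM per kb of exonic length, from 0) of the 10 members, ordered by the untreated mean, with 1 circle per untreated and 1 square per BML-210 library. Klf6 is highest in all 4 libraries, and Klf2 drops below Klf10 in the BML-210 libraries.

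The rest of the family was partly silent. Of 7 other KLF genes, Klf1, the erythroid factor, and Klf12, Klf14 and Klf17 had at most 5 reads in any library and were not tested. Klf8, the CtBP-binding relative of Klf3 linked to invasion, rose from 19.1 and 21.2 CPM to 29.5 and 27.1 CPM (log2 fold change 0.49, edgeR adjusted p = 1.51e-05). Klf16, a Sin3-binding repressor, measured 34.3 and 33.9 CPM untreated and 27.4 and 29.0 CPM with BML-210 (-0.27, edgeR adjusted p = 0.00429). The Klf16 call was lost without BML-210 replicate 1 (edgeR adjusted p = 0.0516) and by DESeq2 (adjusted p = 0.0858, with 0.00153 the lowest over the alternatives). Klf15, a glucocorticoid-responsive metabolic regulator, had 2 and 4 reads untreated and 20 and 21 with BML-210. Its summed reads differed by a ratio of 7.57 after library scaling, with an exact 95% counting interval from 3.2 to 21.8 (edgeR adjusted p = 2.51e-05). Klf15 passed the count filter only through the BML-210 libraries, where it is high, so this test is no independent support. It was not tested under a minimum mean of 1 CPM. Both BML-210 libraries lay above both untreated ones, at a depth where 3 reads equal 0.182 to 0.227 CPM.

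The SP factors bind the same GC boxes through related zinc fingers, and the ubiquitous ones rose slightly. Sp1 went from 335.5 and 330.4 CPM to 372 and 377 CPM (log2 fold change 0.17), Sp2 from 28.8 and 28.1 to 37.5 and 34.9 CPM (0.35) and Sp3 from 137 and 128 to 171 and 169.8 CPM (0.36). Each of these 3 passed the test (edgeR adjusted p = 7.59e-06, 0.000272 and 9.56e-11) and had separate groups. Sp4, best known from neurons, fell from 17.1 and 15.4 CPM to 10.7 and 7.69 CPM, a log2 fold change of -0.84 ± 0.14 (SE, with adjusted p = 5.93e-07 by edgeR), which is larger in size than that of any of the 10 members. Sp6 (0.22) and Sp7 (-0.62) did not pass, and Sp5, Sp8 and Sp9 had at most 5 reads in any library.

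Partners of the KLF proteins showed small changes. Of 12 corepressor genes, 5 were called higher, 1 lower and 6 neither (median log2 fold change 0.07). Over all tested genes 22.9% were called higher and 23.5% lower, and the counts of this list and those below stand beside these shares. Ncor1 rose clearly (log2 fold change 0.36, edgeR adjusted p = 2.70e-14). The CtBP genes Ctbp1 (0.15) and Ctbp2 (0.18) passed weakly (edgeR adjusted p = 0.0174 and 0.0177), and Hdac1 was lower (-0.17, edgeR adjusted p = 0.00851). These weak calls did not hold throughout. The number called higher was 1 without untreated replicate 1 or with DESeq2, 2 without either BML-210 replicate or under upper-quartile factors, and 3 without the filter on low counts. Hdac1 was not called without untreated replicate 2, without BML-210 replicate 1 or with DESeq2. Of the 4 acetyltransferase coactivators that KLF activators recruit, Crebbp rose by 0.43 and Kat2a by 0.36 (edgeR adjusted p = 6.95e-17 and 1.69e-09), Kat2b passed narrowly (0.19, edgeR adjusted p = 0.0358) and lost its call when any 1 of the 4 libraries was left out, and Ep300 (-0.04) did not pass.

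The kinase cascade that leads through MEK5 and ERK5 to MEF2, the known route to Klf2 and Klf4 transcription, went both ways. Of 7 tested genes of the route, 2 were higher and 2 lower, beside 46.4% of all tested genes called in either direction. Map3k2, an upstream kinase, fell from 311 and 296 CPM to 203.5 and 203.0 CPM (log2 fold change -0.58, edgeR adjusted p = 2.57e-21), and the MEF2 gene Mef2d fell from 278 and 273 CPM to 225 and 234 CPM (-0.26, edgeR adjusted p = 4.46e-09). Map2k5, which encodes MEK5, rose (0.52, edgeR adjusted p = 4.70e-05), Mef2a rose by 0.15 (edgeR adjusted p = 0.000768), and Mapk7, which encodes ERK5, measured -0.01 and did not pass. The relation of these values to the fall of Klf2 was not tested.

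Enzymes that set the stability of KLF proteins through ubiquitin were higher in 3 and lower in 1 of 8 tested cases. Of all tested genes, 46.4% were called in either direction. Siah1a, whose product degrades Klf10, rose by 0.54 and Smurf1, whose product degrades Klf2, by 0.30 (edgeR adjusted p = 1.27e-06 and 1.95e-06), and the deubiquitinase gene Usp10 rose by 0.18. Bap1, which stabilises Klf5 protein, was lower (-0.21, edgeR adjusted p = 0.00843), but that call was lost without untreated replicate 1 and with DESeq2. The Klf5 ligase genes Wwp1 (-0.03) and Fbxw7 (0.03) did not pass. RNA levels do not show the amounts of KLF protein.

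Genes around known inducers of single members, which include other targets and feedback genes of those inducers, were called in both directions. Of all tested genes, 46.4% were called in either direction. Around the glucocorticoid receptor, which induces Klf9, 1 of 7 tested genes was higher and 2 were lower: the receptor gene Nr3c1 rose by 0.18 (edgeR adjusted p = 0.000223), while Per1 fell from 173 and 179 CPM to 106.5 and 101 CPM (-0.76, edgeR adjusted p = 1.23e-22) and Sgk1 had a log2 fold change of -0.37 (edgeR adjusted p = 0.000118). Fkbp5 (0.02) did not pass. In the TGF-beta route, which induces Klf10 and Klf11, 4 of 12 genes were higher and 3 lower, with a median of 0.10. The ligand gene Tgfb1 (-0.28) and the receptor gene Tgfbr1 (-0.34) fell, while Skil (0.21), a feedback inhibitor of SMAD signalling, rose (edgeR adjusted p from 1.34e-08 to 0.000178 for these 3 genes). With DESeq2 the number called higher in this route was 2.

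Klf2, Klf4, Klf6 and Klf10 are early response genes, so other immediate-early genes are given beside them. Of 15 tested, 4 were higher, 6 lower and 5 neither (median 0.01). Fosl1 (0.47) and Srf (0.24) rose, and Dusp1 (-0.77), Jun (-0.31) and Atf3 (-0.30) fell (edgeR adjusted p from 2.43e-19 to 0.000175). The number called higher was 2 without untreated replicate 1 or with DESeq2, and the number called lower was 3 without BML-210 replicate 1 or with DESeq2. These genes moved in both directions, as did all tested genes, of which 22.9% were called higher and 23.5% lower.

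**Figure D4:**
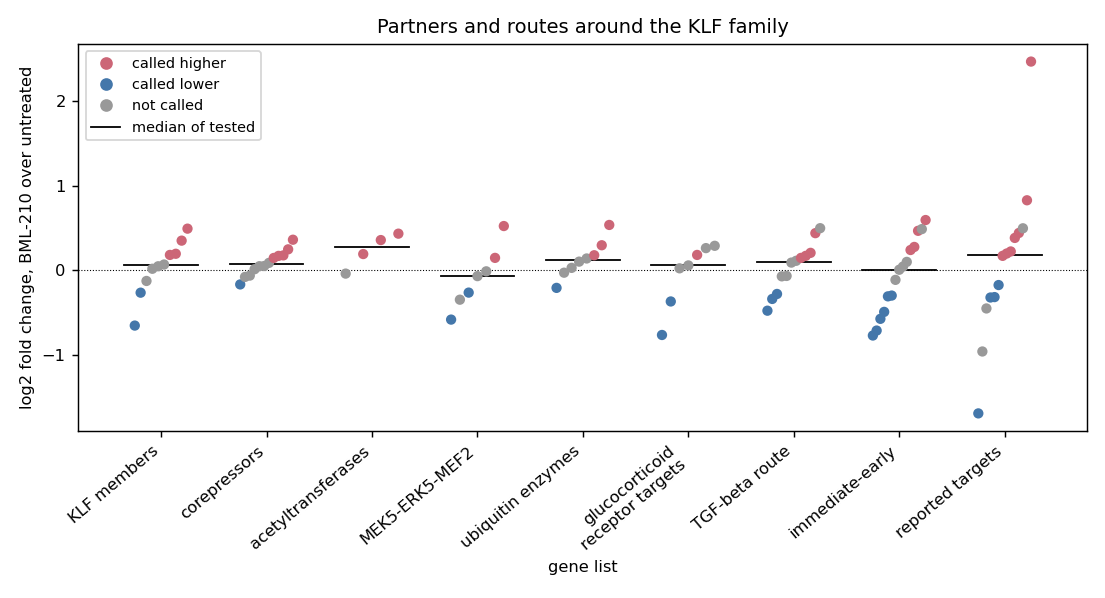
Log2 fold changes of BML-210 over untreated (y axis) for the tested genes of each list (x axis; 1 point per gene, coloured by its call, spread sideways by rank), with a line at each median. In every list shown except the acetyltransferases, genes called higher and genes called lower stand side by side, and the medians lie between -0.07 and 0.27. Over all tested genes 22.9% were called higher and 23.5% lower.

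Of 14 tested genes that have been described as KLF targets, 7 were higher, 4 lower and 3 neither (median 0.19). Over all tested genes the shares were 22.9% higher and 23.5% lower. The mitotic cyclin gene Ccnb1, which Klf4 is known to repress, rose from 63.2 and 61.2 CPM to 110.9 and 110.0 CPM (0.83, edgeR adjusted p = 7.06e-21). Txnip (0.38) and Eng (0.44), both described as KLF targets in other cells, rose (edgeR adjusted p = 4.52e-10 and 2.69e-09), and Cdkn1a, the cell cycle inhibitor gene activated by Klf4 and Klf6, fell by 0.32 on the log2 scale, as did Pdgfa (-0.32), a target of Klf5. The endothelial Klf2 targets Thbd and S1pr1 had at most 1 read in any library. These genes have many other regulators, and the list was drawn up with earlier results of these data known.

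Markers of the labelled tissue and of other cells were checked beside these values. Of 8 epithelial markers, 7 stayed under 1 CPM in every library, including Epcam and Krt18, and Krt8 fell from 43.5 and 49.1 CPM to 28.3 and 33.0 CPM (edgeR adjusted p = 3.48e-09), so Krt8 was the only one of these markers above that level. Of 12 macrophage markers, 8 stayed under 1 CPM in every library, and their summed level of 169 to 172 CPM untreated and 35.7 to 37.5 CPM with BML-210 was mostly Cd68, which fell from 162 to 31.0 CPM. Of the 5 macrophage markers tested, 2 were called lower, Cd68 and Adgre1, and 3 were not called. Adgre1 had 33 and 13 reads untreated and 1 and 4 with BML-210 (log2 fold change -2.98, edgeR adjusted p = 3.83e-05). Adgre1 passed the count filter only through the untreated libraries, where it is high, so its test is no independent support. Under a minimum mean of 1 CPM it was not tested, and 1 macrophage marker was called lower. For the endothelial markers, which would accompany Klf2 and Klf4 from vessel cells, the summed level was 7.85 to 9.23 CPM untreated and 8.12 to 9.97 CPM with BML-210, and edgeR called 0 of 3 tested markers, with 0 at an unadjusted p below 0.05 and 0 called by DESeq2 or limma-voom. Without BML-210 replicate 1 the number called lower was 1. T lymphocyte markers summed to 2.49 and 2.33 CPM untreated and to 4.38 and 4.13 CPM with BML-210, and 7 of 8 stayed under 1 CPM in every library. The exception, Lck, was the only one tested and rose from 2.06 and 1.53 CPM to 3.78 and 3.56 CPM (log2 fold change 1.01, edgeR adjusted p = 0.00193). Fibroblast markers summed to 231 and 239 CPM untreated and 201 and 207 CPM with BML-210, of which Pdgfra fell (-0.68) and Pdgfrb (0.57) and Col3a1 (1.55) rose, while Lum had no read and Dcn at most 1 in any library (edgeR adjusted p at most 8.62e-05 for the called genes). In bulk RNA, fewer cells of a type and less RNA per cell cannot be told apart, and the part of other cells in the Klf2 value was not tested.

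Library totals ran from 13167893 to 16534667 counts, and the members had between 245 (Klf4) and 3852 (Klf7) reads in single libraries. Mitochondrial genes took 5.05% to 5.57% of a library. Of the 13 that encode proteins, 6 were called higher and 2 lower, with log2 fold changes from -0.17 to 0.58. Over all tested genes 22.9% were called higher and 23.5% lower, so single mitochondrial RNAs differed between the groups though their share was similar. The non-coding gene Gm26917 took 5.52% and 6.41% of the untreated libraries and 4.04% and 4.45% of the BML-210 libraries, and leaving out genes above 1% of a library changed no call of a member.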

How the data were processed

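Total RNA from 2 untreated and 2 BML-210 libraries of EO771 cells was sequenced. The authors deposited unnormalised read counts for each gene, and per the file headers the table also gives exon coordinates and exonic lengths. The submitters' processing notes name STAR (2.5), featureCounts, Subread (1.5.1), edgeR (3.20.8) and the build mm10. The sources used here do not state the settings for strand, multi-mapping reads or overlaps.

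The fit used edgeR 4.0.16 under R 4.3.3: filterByExpr (14455 of 56350 genes kept), TMM, glmQLFit with robust=TRUE and glmQLFTest on the group alone, with Benjamini-Hochberg adjustment over all tested genes and calls below 0.05. The SE is the log2 fold change over the square root of F. A count of 3 equals 0.182 to 0.227 CPM, and intervals from counts cover counting error only. The steps were tested on simulated data. Replicates were not duplicates of each other (chi-square per degree of freedom 2.89 untreated, 1.80 BML-210), and each library was counted as 1 sample. This check cannot show whether the libraries came from separate cultures.

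Members and gene lists were chosen with earlier results of these data known. The rule for named genes takes every KLF and SP gene, genes whose exons overlap a member's, and per list up to 4 called genes with the smallest adjusted p and 2 against the majority. A gene that the rule takes is not reported here. Named outside it are Mapk7, Ep300, Wwp1, Fbxw7, Fkbp5, Thbd, S1pr1, Epcam, Krt18, Lum, Dcn and Gm26917. Symbols match the table, except that Ctgf is listed as Ccn2. Alternatives were RLE and upper-quartile factors, library size only, all genes with a count, a minimum mean of 1 CPM, a replicate block, each library left out, genes over 1% of a library left out, robust=FALSE, DESeq2 1.42.0 and limma-voom (limma 3.58.1). Leaving out mitochondrial genes was added after seeing the data. Promoter windows (250 bases before the RefSeq start) were searched on both strands, overlaps allowed, for CACCC (KLF core), GGGCGG (GC box), CCAAT (NF-Y box), CACGTG (E-box), the TATA-box motif TATAAA, TGACGTCA (CREB site), the AP-1 motif (TGA and TCA with 1 base of any kind between), TTTCCCGC (E2F site) and the consensus of MEF2, SRF (CArG box), NF-kappaB and the glucocorticoid receptor. These motifs were chosen after the values were seen.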

Additional observations from a re-analysis of the deposited data

How the results depend on the processing

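Klf2, Klf6, Klf7 and Klf10 kept their direction and their call in each of the 15 alternatives. The number of members called higher was 4, and 3 to 4 with single libraries left out; the number called lower was 2, 1 with DESeq2, and 1 to 3 with single libraries left out. DESeq2 called 4335 of all tested genes (2205 higher, 2130 lower), against 6714 by edgeR. With single libraries left out, 5655 to 5908 genes were called. With the replicate number as a block, 4 members were called higher, 2 lower and 6845 genes in all, and no call of a member changed. Over all tested genes, libraries with the same number did not deviate together (correlation 0.01). This correlation cannot decide whether they shared a batch that affects only some genes. Under upper-quartile factors 2946 genes were called higher and 3747 lower, without a change in any member's call. Without length, Klf2 made up 6.08% of the members' summed CPM in the untreated and 3.50% in the BML-210 libraries, against 16.5% and 9.91% per length. The 3 motif counts recomputed with the 50 bases after the start (CACCC, MEF2 and CACGTG) were the same. With 2 libraries a group, the 95% intervals of Klf3, Klf5 and Klf9 leave room for small changes in either direction.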
